A study of Mus musculus with 8 samples.

Results

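The Zscan4 genes and their companions Gm8300, Zfp352, Tcstv1 and Tcstv3 are transcripts of the mouse 2-cell embryo that reappear in embryonic stem cell cultures. The deposited expression tables were searched by exact match for 10 gene symbols: Zscan4a, Zscan4b, Zscan4c, Zscan4d, Zscan4e, Zscan4f, Gm8300, Zfp352, Tcstv1 and Tcstv3. A row was found for 9 of these 10 genes, out of 24279 rows in each table, and Zscan4e was not analysed here. The search used gene symbols only and no measured value, though the genes were chosen with earlier results of these data known.

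Zscan4 genes encode nuclear proteins with a SCAN domain and zinc fingers, and are switched on when the embryo starts to transcribe its own genome. In mouse embryonic stem cell cultures a small, changing fraction of the cells re-enters a 2-cell-like state, in which Zscan4, the homeobox gene Dux, retrotransposon-linked genes and the Tcstv genes are transcribed together. Zscan4 is known for its part in telomere lengthening and genome stability in these cells. In RNA from a whole culture, fewer 2-cell-like cells and less RNA per cell cannot be told apart.

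The study sequenced RNA from mouse embryonic stem cells after 6 days without leukaemia inhibitory factor, with 2 libraries in each of 4 groups, all labelled as cells of passages 8 to 15 with a doxycycline-inducible HA-Flag-AGO2. The noDox group lacked the 4 Argonaute proteins (AGO1-4-/-), which carry microRNAs. The DOX group was AGO1-4-/- and expressed only AGO2 with doxycycline, the NLS group was AGO1-4-/- and expressed only NLS-AGO2, and the E14 group was the wild-type E14 line. The growth and treatment text, which names 2.5 µg/ml doxycycline given daily, is the same for every group, so the labels do not say whether noDox cells received the drug. RNA was taken from whole cells and depleted of ribosomal RNA. Neither the number of clones nor separate cultures per library are stated.

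The deposited tables hold 1 value per group, pooled over its libraries, in reads scaled to transcript length and library size (RPKM), with a Cuffdiff statistic, a p-value and a q-value, which is a p-value adjusted over the table. The table for DOX and the table for E14 were identical in 24279 of 24279 lines, so that group is called DOX/E14 here. The labels do not settle which of the 2 cell types it holds. No value per library exists in these tables, so the spread between the libraries cannot be shown, and the depth is unknown. The standard error (SE) of each log2 fold was taken from the fold and the deposited statistic. The level of Ago1 was 0.0159 RPKM in noDox, against 16.7 in DOX/E14 and 0.861 in NLS. Ago1 was not called in DOX/E14 and had no test in NLS. By the labels, DOX cells lack AGO1 and E14 cells are wild type, and which line gave the DOX/E14 values was not tested. Ago2, the re-expressed gene, was at 26.1 RPKM in noDox and 32.6 in DOX/E14, and at 26.8 in noDox and 35.7 in NLS in the second table and was called in neither. Ago3 was at 7.56 RPKM in noDox and 3.0 in DOX/E14, and at 7.76 in noDox and 14.5 in NLS, called lower in the first table and higher in the second. RNA of both was thus present in the group labelled AGO1-4-/-, and all groups are named here as labelled. Levels of noDox are given once per table, since each table was scaled separately, with a median ratio of 1.03 between the noDox columns.

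The Zscan4 copies lie side by side on chromosome 7 between bases 10794241 and 11402318 of the mouse genome (mm10). Their promoters are shown to make plain how alike the copies are. RefSeq (GRCm38.p6) promoter windows were matched for Zscan4b, Zscan4c, Zscan4d, Zscan4f and Zfp352. The 4 Zscan4 windows share a stretch of 266 bases that aligns without gaps. It is printed 5′ to 3′ on the strand of the gene, with capitals at the 13 positions where the copies differ.
Zscan4b, chr7:10905001-10905266 (-): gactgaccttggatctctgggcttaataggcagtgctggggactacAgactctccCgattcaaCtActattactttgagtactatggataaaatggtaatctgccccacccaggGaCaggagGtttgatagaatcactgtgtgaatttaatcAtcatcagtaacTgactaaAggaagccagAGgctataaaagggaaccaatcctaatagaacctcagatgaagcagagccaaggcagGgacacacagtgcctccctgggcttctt
Zscan4c, chr7:11005506-11005771 (+): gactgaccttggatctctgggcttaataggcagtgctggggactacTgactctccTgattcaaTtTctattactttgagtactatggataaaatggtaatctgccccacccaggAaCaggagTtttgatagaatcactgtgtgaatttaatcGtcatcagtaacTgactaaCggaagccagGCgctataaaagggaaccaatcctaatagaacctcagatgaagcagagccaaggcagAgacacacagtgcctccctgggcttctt
Zscan4d, chr7:11166133-11166398 (-): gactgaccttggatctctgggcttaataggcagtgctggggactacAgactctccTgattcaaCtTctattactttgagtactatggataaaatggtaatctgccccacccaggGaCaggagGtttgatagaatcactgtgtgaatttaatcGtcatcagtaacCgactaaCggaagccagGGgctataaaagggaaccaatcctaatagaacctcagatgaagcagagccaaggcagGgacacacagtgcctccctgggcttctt
Zscan4f, chr7:11397699-11397964 (+): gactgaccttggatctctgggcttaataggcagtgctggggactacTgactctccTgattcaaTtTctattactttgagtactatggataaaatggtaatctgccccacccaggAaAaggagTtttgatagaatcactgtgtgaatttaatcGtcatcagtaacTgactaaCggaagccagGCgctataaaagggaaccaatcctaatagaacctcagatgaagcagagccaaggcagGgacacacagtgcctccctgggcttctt

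Identity between pairs of these promoters ran from 95.9% to 99.2%. The closest pair was Zscan4c and Zscan4f, with 264 of 266 bases identical, and Zscan4b and Zscan4c were among the least alike, with 255 of 266. All 4 hold the letters TATAA, with the first base 31 bases before the annotated gene start in Zscan4b and Zscan4f, 54 in Zscan4c and 65 in Zscan4d. TATAA sits at the same place of the aligned stretch in each copy, so the different distances come from the annotated starts.

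The Zfp352 promoter on chromosome 4 is shown because it carries the same letters, here in capitals, with the first base 28 bases before the gene start.
Zfp352, chr4:90218720-90218869 (+): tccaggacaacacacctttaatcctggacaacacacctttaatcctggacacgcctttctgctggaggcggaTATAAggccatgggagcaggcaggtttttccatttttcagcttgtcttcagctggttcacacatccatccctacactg

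The letters TATAA were searched on both strands of all 32851 RefSeq promoter windows of 300 bases, and 24.9% of them hold a match. On the strand of the gene, with the whole match lying 40 to 21 bases before the start, it was found in 3.31% of the windows. The same held for 3 of the 5 printed genes. A match describes the sequence and shows no binding.

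Because the copies are so alike, their RNA reads are hard to assign to 1 copy. In the GENCODE M21 annotation, 95.3% of the 50-base words of the Zscan4f transcript also occur in another gene, 90.3% of those of Zscan4b and 85.5% of those of Zscan4c. The share was 63.6% for Zscan4a and 49.6% for Zscan4d. Zscan4a and Zscan4d thus had the least shared sequence among the 5 measured copies, and the values below put them highest in both noDox and NLS. Gm8300 shared 26.6% of its words, Tcstv3 31.4%, Tcstv1 16.8% and Zfp352 7.09%. How reads with several matches were counted is not given in the sources used here, and 4 further Zscan4 copies of that annotation, Zscan4e among them, have no row. The level of a single Zscan4 copy is therefore uncertain, and its part in the differences was not tested.

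**Figure D1:**
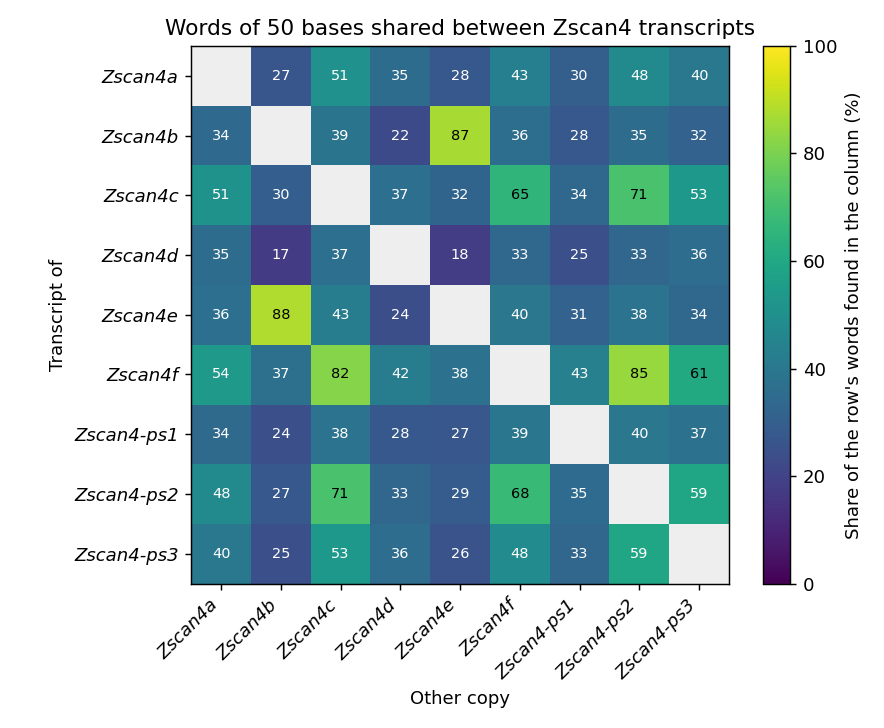
Share of the 50-base words of each Zscan4 transcript (rows) that also occur in another copy (columns), as a percentage given by colour and number, for the 9 copies of GENCODE M21. Zscan4b shares 87.1% of its words with Zscan4e and Zscan4f shares 84.7% with Zscan4-ps2, while Zscan4d shares no more than 36.7% with any 1 copy, its closest being Zscan4c.

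Summed over the 5 measured copies, Zscan4 RNA was at 6.10 RPKM in noDox and 0.458 RPKM in DOX/E14, a log2 difference of -3.74, or 13.3-fold lower in DOX/E14. In the NLS table the sum was 6.26 RPKM in noDox and 35.8 RPKM in NLS, a log2 difference of 2.51, or 5.71-fold higher in NLS. The sum depends little on how reads were split among these copies. Being a sum of group values, it has no error and no test. Zscan4a and Zscan4d made up 63.9% of the noDox sum, 58.9% of the DOX/E14 sum and 72.3% of the NLS sum. The share of Zscan4f was 10.2% in noDox and 5.75% in NLS.

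Zscan4a, which RefSeq annotates as a transcribed pseudogene (chr7:10794241-10799065), was at 1.98 RPKM in noDox and 0.174 in DOX/E14. It fell 11.4-fold in DOX/E14, a log2 fold of -3.51 (SE 1.07), with q = 0.0135 in the authors' deposited table. Set against NLS, Zscan4a was at 2.03 RPKM in noDox and 13.3 in NLS, 6.53-fold higher. This rise, a log2 fold of 2.71 (SE 0.53), had q = 0.00191 in the authors' deposited table, where no q is lower.

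Zscan4d (chr7:11161643-11166148), a protein-coding copy, was at 1.92 RPKM in noDox and 0.0957 in DOX/E14. Its log2 fold of -4.33 was the largest among the members, but its SE was 1.46 and q was 0.126 in the authors' deposited table, so it was not called at q below 0.05. Zscan4d rose to 12.6 RPKM in NLS from 1.97 in noDox, a log2 fold of 2.68 (SE 0.57) with q = 0.00191 in the authors' deposited table. Zscan4d and Zscan4a thus had nearly the same level as each other in noDox and in NLS.

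Zscan4b (chr7:10900740-10905050), Zscan4c (chr7:11005745-11010547) and Zscan4f (chr7:11397915-11402318), also protein-coding, were lower than both in noDox and NLS. Zscan4c was at 0.725 RPKM in noDox and 0.0804 in DOX/E14, a pair the authors' table did not test. Its level in NLS was 3.95 RPKM against 0.743 in noDox, a rise with a log2 fold of 2.41 (SE 0.81) with q = 0.0208 in the authors' deposited table. Zscan4b was at 0.856 RPKM in noDox and 0.0552 in DOX/E14, again not tested. Its values of 0.881 RPKM in noDox and 3.91 in NLS gave a log2 fold of 2.15 (SE 0.90) and q = 0.0804 in the authors' deposited table, which was not called. The levels of Zscan4b and Zscan4c were thus alike, while 1 was called and the other was not.

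Zscan4f was the lowest copy in noDox and in NLS. It was at 0.623 RPKM in noDox and 0.0526 in DOX/E14, without a test. In the NLS table it was at 0.640 RPKM in noDox and 2.06 in NLS, a log2 fold of 1.68 (SE 1.06) with q = 0.231 in the authors' deposited table.

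Gm8300 (chr12:87514316-87518265) is a protein-coding gene on another chromosome. It was at 1.42 RPKM in noDox and 0.125 in DOX/E14, a log2 fold of -3.50 (SE 1.29) with q = 0.0802 in the authors' deposited table, which was not called. Gm8300 rose to 7.96 RPKM in NLS from 1.46 in noDox, a log2 fold of 2.45 (SE 0.68) with q = 0.00452 in the authors' deposited table.

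Tcstv1 and Tcstv3 belong to a small family on chromosome 13 named for its variable expression at the 2-cell stage. Tcstv3 (chr13:120316862-120318261) was at 0.965 RPKM in noDox and 0.127 in DOX/E14, and at 0.986 in noDox and 4.51 in NLS. The NLS log2 fold of 2.19 had an SE of 1.24 and q = 0.226 in the authors' deposited table. Tcstv1 (chr13:119893387-119894785) was lower, at 0.319 RPKM in noDox and 0.0921 in DOX/E14, and at 0.327 in noDox and 1.39 in NLS. Its NLS log2 fold of 2.09 (SE 1.88) had q = 0.451 in the authors' deposited table. Neither gene was called, and neither was tested in the DOX/E14 table.

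Zfp352 (chr4:90218820-90225687), a zinc finger gene of the 2-cell embryo, was the lowest member in every group. It was at 0.257 RPKM in noDox and listed at 0 in DOX/E14, so no fold is given. In the NLS table it was at 0.265 RPKM in noDox and 1.09 in NLS, a log2 fold of 2.04 (SE 1.29) with q = 0.245 in the authors' deposited table.

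**Figure D2:**
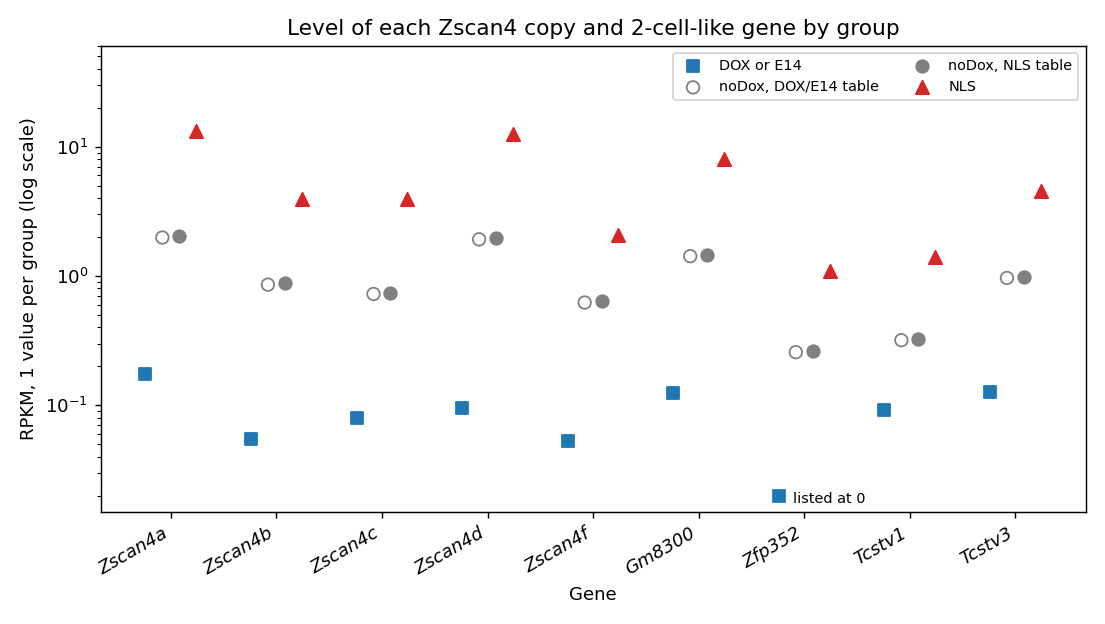
Level of each member (RPKM, log scale) in noDox, DOX/E14 and NLS, 1 pooled value per group and table, with no error bars because no library values are given. No member is above 0.174 RPKM in DOX/E14, and in NLS the members lie between 1.09 and 13.3 RPKM.

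Of the 9 members with a row, 9 had a lower value in DOX/E14 than in noDox, by 3.46- to 20.0-fold for the 8 that were above 0. A test was made for 3 of them, and 1, Zscan4a, was called lower at q below 0.05, while 28.3% of the 12382 tested genes were called lower and 27.2% higher in that table. Against noDox, 9 of the 9 members had a higher value in NLS, by 3.21- to 6.53-fold, and 4 of 9 tested were called higher: Zscan4a, Zscan4c, Zscan4d and Gm8300. Of the 12936 genes tested there, 3.97% were called higher and 4.39% lower. Among all genes above 0 in a compared group, tested or not, 49.9% had a lower value in DOX/E14 and 51.4% a higher value in NLS. The Zscan4 copies share much of their sequence, so the 9 members are not 9 separate observations of direction. Whether the authors' table tests a gene depends on its level, and 6 members were tested in the NLS table only, where their level was higher, so the counts of calls describe these members and measure nothing more. At an unadjusted p below 0.05 the authors' deposited tables hold 2 members in DOX/E14 and 7 in NLS. The share of all tested genes at that threshold was not counted, so such counts, here and below, stand without a background.

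**Figure D3:**
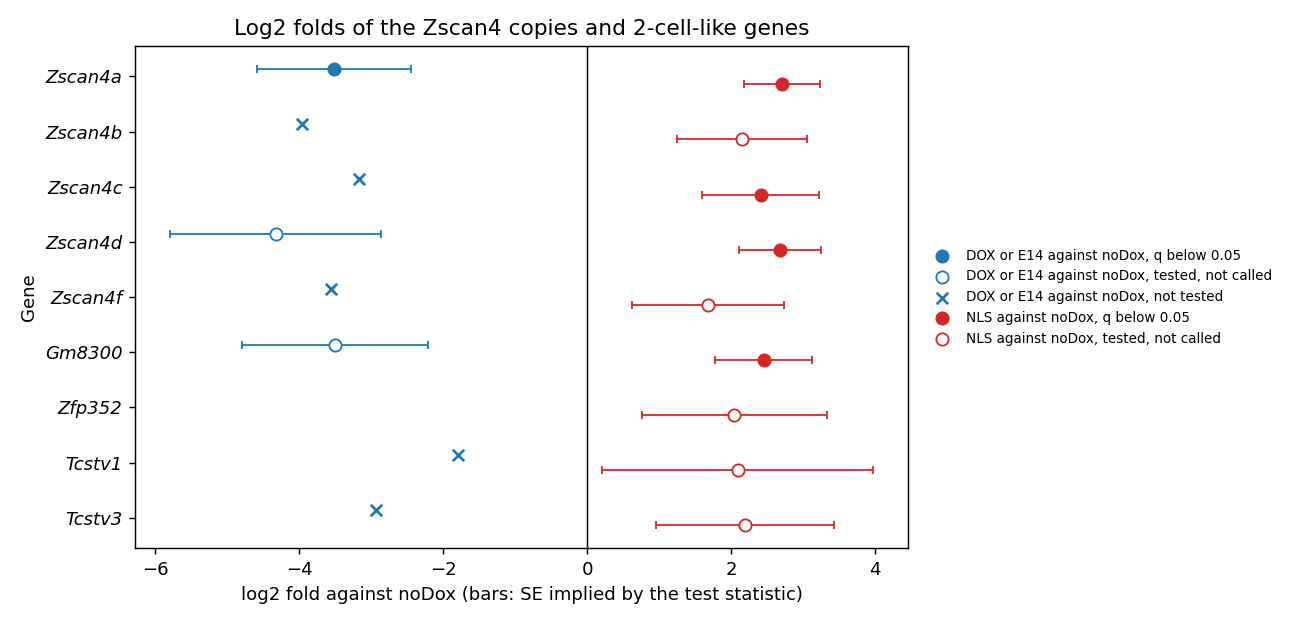
Log2 fold against noDox of each member in DOX/E14 and in NLS, with bars of 1 SE where the deposited statistic gives one and crosses where no test was made. The NLS folds lie between 1.68 and 2.71, and the DOX/E14 folds of the 8 members above 0 lie between -4.33 and -1.79, with no point for Zfp352, listed at 0.

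How far NLS and DOX/E14 lie apart could be tested for the 3 members with a statistic in both tables. The difference of the log2 folds, NLS minus DOX/E14, was 6.22 (SE 1.20) for Zscan4a, 7.0 (SE 1.57) for Zscan4d and 5.95 (SE 1.46) for Gm8300. By a two-sided normal test with Benjamini-Hochberg adjustment over 11907 genes, the adjusted p was 1.11e-05, 0.00025 and 0.00104. In that test 9.78% of all genes had a higher fold in NLS and 3.18% a lower one. Both folds share the noDox libraries. With the SE taken from the deposited p-values instead, the adjusted p was 0.00134, 0.0355 and 0.0152, and each call held.

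Genes known from the same 2-cell-like state, among them genes driven by the MERVL retrotransposon, were counted from a list of 55 symbols outside the members, of which 46 have rows. The list was written with earlier results of these data known, so its counts and shares only describe it. Against noDox, 27 of them were tested in NLS, 9 rose and 1 fell, beside 3.97% of all tested genes called higher and 4.39% lower. Since 18 of the 27 were tested in the NLS table only, mostly genes whose level was high enough there alone, this count leans towards rises. Of the 37 with a value above 0 in noDox or NLS, tested or not, 34 had a higher value in NLS, against 51.4% of all such genes, and 2 of the 37 were at 0 in noDox. In DOX/E14 there were 9 tested, of which 0 rose and 3 fell, beside 27.2% of all tested genes called higher and 28.3% lower. Cuffdiff, at an unadjusted p below 0.05, also gave 0 higher and 3 lower there. Of the 36 with a value above 0 in noDox or DOX/E14, 32 had a lower value in DOX/E14, against 49.9% of all such genes. For 13 of the 32 the lower value was a listed 0.

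The Usp17l genes, which encode deubiquitinating enzymes, gave 3 of the 9 rises in NLS. Usp17lb was at 1.74 RPKM in noDox and 10.2 in NLS, a log2 fold of 2.55 with q = 0.00191 in the authors' deposited table. Usp17le was at 1.21 and 6.97 RPKM, with q = 0.0106 in the authors' deposited table. Usp17la was at 0.541 and 2.99 RPKM, with q = 0.0483 in the authors' deposited table. The family is itself made of near-identical copies, so its single values carry the same doubt as those of Zscan4. In DOX/E14 the 3 genes were at 0, 0.113 and 0.0603 RPKM in that order, and Usp17lb, at 1.70 RPKM in noDox, was called lower there.

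Other rises in NLS were found in Gm5662, from 0.708 to 7.91 RPKM, and in Tmem92, from 0.843 to 5.94 RPKM. Gm12794 rose from 2.11 to 12.9 RPKM and Gm8994 from 4.18 to 17.4 RPKM. Gm8994 also fell in DOX/E14, from 4.08 to 0.187 RPKM, a log2 fold of -4.44 with q = 0.0437 in the authors' deposited table. Ddit4l, an inhibitor of mTOR signalling, rose from 2.66 to 12.2 RPKM in NLS, and P4ha2, a collagen prolyl hydroxylase, from 5.24 to 9.92 RPKM. Those last 2 genes were near their noDox level in DOX/E14, at 2.95 against 2.59 RPKM for Ddit4l and 4.95 against 5.12 RPKM for P4ha2, and neither was called.

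Calcoco2, an autophagy receptor gene, was the 1 listed gene that fell in NLS, from 187 to 95.3 RPKM, a log2 fold of -0.97 with q = 0.00191 in the authors' deposited table. In DOX/E14 it was at 5.73 RPKM against 182 in noDox, a log2 fold of -4.99. With such a level in noDox it stands far above every member. Dux, the homeobox activator of the state, had 0.205 RPKM in noDox against 0.034 in DOX/E14, and 0.211 in noDox against 0.559 in NLS, and was tested in neither table. AF067061, of the Tcstv neighbourhood, was at 0.567 RPKM in noDox and 3.81 in NLS with q = 0.161 in the authors' deposited table, and was listed at 0 in DOX/E14.

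**Figure D4:**
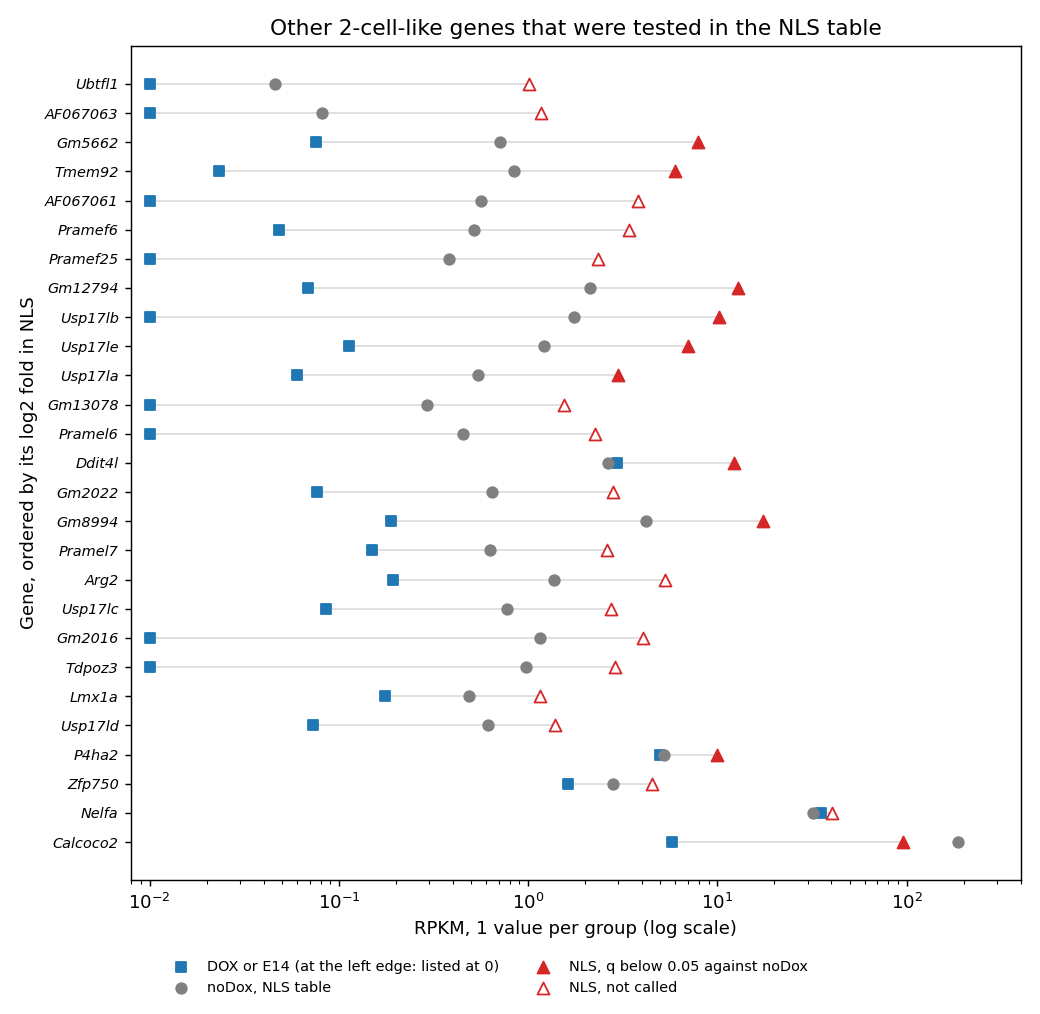
Levels (RPKM, log scale) of the 27 other 2-cell-like genes that were tested in the NLS table, 1 point per group, with values listed at 0 drawn at the left edge. Filled triangles are called at q below 0.05 in NLS, and Calcoco2 is the called gene whose NLS point, 95.3 RPKM, lies below its noDox point, 187 RPKM.

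Among 10 genes with rows that are known to activate the state, 8 were tested in each table. In DOX/E14 2 rose and 4 fell, beside 27.2% of all tested genes called higher and 28.3% lower there. Dppa3, a maternal factor of the early embryo, rose from 1.40 to 8.41 RPKM, and Rarg, a retinoic acid receptor, from 23.7 to 62.9 RPKM. Tbx3, a T-box transcription factor, fell from 49.6 to 2.80 RPKM, and Dppa2, which acts upstream of Dux, from 45.3 to 26.8 RPKM. Nfya and Trp53, which encodes p53, fell from 20.8 to 14.1 and from 254 to 178 RPKM. In NLS, 0 of the 8 were called by Cuffdiff at q below 0.05, beside 3.97% of all tested genes called higher and 4.39% lower. An unadjusted p below 0.05 was found for 3, of which 1 was higher and 2 lower. Dppa2 was lower, at 46.5 RPKM in noDox and 30.5 in NLS, and so was Trp53, at 260 and 177 RPKM. Rarg was higher, at 24.4 RPKM in noDox and 35.9 in NLS.

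The 41 genes listed as repressors of the state, all tested, moved both ways in DOX/E14: 13 rose and 9 fell, with a median log2 fold of 0.13. All tested genes also moved both ways there, with 27.2% called higher and 28.3% lower. Lin28a, an RNA-binding protein that blocks let-7 maturation, rose from 1.35 to 248 RPKM there, and Myc from 2.16 to 30.9 RPKM. Rcor1, a corepressor subunit, rose from 5.87 to 11.2 RPKM and Pcgf6, a Polycomb subunit, from 19.9 to 36.4 RPKM. Max, the partner of Myc, fell from 91.2 to 35.6 RPKM, Zfp42 from 254 to 107 RPKM, Rybp from 29.3 to 15.6 RPKM and Mga from 49.5 to 27.6 RPKM. Setdb1, a histone H3 methyltransferase, fell from 65.1 to 38.3 RPKM, and Ep400, a chromatin remodeller, from 36.8 to 23.5 RPKM.

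In NLS 3 repressors rose and 0 fell by Cuffdiff at q below 0.05, with 4 higher and 6 lower at an unadjusted p below 0.05. Among all tested genes, 3.97% were called higher and 4.39% lower in NLS. Lin28a rose from 1.39 to 30.5 RPKM, Cbx5, which encodes heterochromatin protein HP1-alpha, from 63.2 to 104 RPKM, and Atrx, a chromatin remodeller, from 21.3 to 33.7 RPKM. Cbx5 also rose in DOX/E14, from 61.6 to 120 RPKM. Trim28, Kdm1a and the other listed repressors were not called in NLS.

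Of 32 telomere genes with rows, 31 were tested in each table. In NLS 2 rose and 1 fell, beside 3.97% of all tested genes called higher and 4.39% lower. Terc, the RNA subunit of telomerase, rose to 167 RPKM from 70.2 in noDox, a log2 fold of 1.25 with q = 0.00342 in the authors' deposited table, and Atrx rose as given above. Gar1, a protein of the telomerase RNA particle, fell from 20.7 to 11.1 RPKM, with q = 0.0414 in the authors' deposited table. Tert, the catalytic subunit, was at 10.7 RPKM in noDox and 14.1 in NLS and was not called.

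In DOX/E14 13 telomere genes rose and 6 fell, beside 27.2% of all tested genes called higher and 28.3% lower. Terc fell from 68.3 to 38.0 RPKM, Tert from 10.4 to 5.83 RPKM and Tep1 from 7.62 to 4.06 RPKM. Smc1b, a meiotic cohesin subunit, fell from 9.16 to 0.652 RPKM. Nhp2 and Nop10, proteins of the telomerase RNA particle that also serve ribosome assembly, rose from 63.8 to 227 and from 60.2 to 149 RPKM. Dkc1, of the same particle, rose from 40.7 to 77.6 RPKM. Gar1 rose from 20.1 to 28.4 RPKM, so the RNA and the catalytic subunit of telomerase fell there while these 4 proteins of the particle rose.

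Maternal transcripts of the oocyte were also looked at, since they precede Zscan4 in the embryo. Of 20 with rows 4 were tested in each table, and in DOX/E14 4 of 4 fell. Among all tested genes, 27.2% were called higher and 28.3% lower in DOX/E14, and 3.97% and 4.39% in NLS. Khdc3 fell from 4.07 to 1.07 RPKM, Zp3, a zona pellucida protein, from 4.77 to 1.34 RPKM, Tle6 from 5.32 to 1.51 RPKM and Ooep from 39.5 to 27.2 RPKM. In NLS 0 of 4 were called by Cuffdiff at q below 0.05, and 2 were higher and 1 lower at an unadjusted p below 0.05.

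The other Zscan genes, which share the domain but not the cluster, had 11 rows. Their counts stand beside 27.2% of all tested genes called higher and 28.3% lower in DOX/E14, and 3.97% and 4.39% in NLS. In NLS 11 were tested, 0 rose and 1 fell, with 0 higher and 2 lower by Cuffdiff at an unadjusted p below 0.05. In DOX/E14 10 were tested, 0 rose and 2 fell, with 1 higher and 2 lower at an unadjusted p below 0.05. Zscan5b fell in both tables, from 5.73 to 0.205 RPKM in DOX/E14 and from 5.87 to 2.43 RPKM in NLS. Zscan10, a pluripotency factor, fell from 82.3 to 61.4 RPKM in DOX/E14.

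Markers of stem cells and of other cell types differed between the groups as well. The counts below stand beside 27.2% of all tested genes called higher and 28.3% lower in DOX/E14, and 3.97% and 4.39% in NLS. The summed level of 8 pluripotency markers was 1869 RPKM in noDox and 1271 in DOX/E14, where 2 rose and 4 fell, and 1916 in noDox and 1707 in NLS, where Cuffdiff called 0 of 7 tested and 0 had an unadjusted p below 0.05. Nanog, the marker without a test there, was at 442 RPKM in noDox and 287 in NLS. That was the largest fall in RPKM among these markers, so a change in their sum was not tested. The 8 trophoblast markers summed to 172 and 445 RPKM in the DOX/E14 table, where 3 rose and 1 fell, and to 177 and 201 RPKM in the NLS table, where 2, Krt18 and Gata3, rose. The keratins Krt8 and Krt18 carried most of these sums, while Tfap2c fell from 18.4 to 10.8 RPKM in DOX/E14. The 8 germ cell markers summed to 45.1 and 43.6 RPKM in the DOX/E14 table, but 4 rose and 2 fell there, with Ddx4 going from 2.77 to 10.9 RPKM and Prdm1 from 25.4 to 2.09. Their sums in the NLS table were 46.3 and 41.2 RPKM, and 1, Prdm1, fell. The 7 primitive endoderm markers summed to 102 and 108 RPKM in the DOX/E14 table, where 1, Dab2, rose, and to 104 and 128 RPKM in the NLS table. The 8 fibroblast markers summed to 258 and 77 RPKM, and to 265 and 205 RPKM, most of it Fn1, which fell from 258 to 64.9 RPKM in DOX/E14. The collagen gene Col1a2, listed at 0 in noDox, rose to 2.46 RPKM in DOX/E14, and Lum was at 0 in every group. The part of these cell types in the Zscan4 values was not tested.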

How the data were processed

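Whole-cell RNA libraries depleted of ribosomal RNA were made with a directional kit, per the labels' protocols. The submitters' processing notes name bcl2fastq 2.17.1, TopHat, Cuffdiff and the mm10 build, without settings. The authors deposited RPKM values, 1 per group and pooled over 2 libraries, with a p-value and a q-value for each gene and a test statistic used here as a score, per the file headers. The depth per library, the gene annotation and the counting of reads by strand are not given in the sources used here.

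Each log2 fold is the log2 of the ratio of 2 RPKM values, without a pseudocount, and none was given where a value was 0. Dividing the size of the fold by that of the deposited statistic gave its SE. A gene was called at q below 0.05. The difference of both folds was tested by z, with a two-sided normal p adjusted by Benjamini-Hochberg over 11907 genes. The noDox variance was counted though it cancels. This step was tested on simulated data, in which both folds were drawn independently with the SEs that the test uses. The simulation therefore checks the arithmetic, and not the SEs or the effect of the shared noDox libraries. P-values measure the spread between libraries whose origin from separate cultures is not stated, so it may be technical. Overlapping, antisense and near-identical genes may share reads.

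Python 3.11.15, pandas 2.3.3, numpy 2.4.6, scipy 1.17.1 and matplotlib 3.10.9 were used. The members and lists were chosen with earlier results of these data known. The text names all members. From each list it names genes called in either table, up to 6 per direction and table, by largest log2 fold among genes with at least 0.1 RPKM. A gene picked by this rule is not reported here. It adds the genes within 250 kb, the 5 genes most like the Zscan4 sum, and Ago1 to Ago3 as the check of the targeted genes. Usp17lb in DOX/E14, Gm8994, Ddit4l, P4ha2, Dux, AF067061 and genes given only as not called were added after their values were seen. Alternatives were pseudocounts of 0.1 and 1 RPKM, a minimum of 1 RPKM, a q below 0.01, a minimum absolute log2 fold of 1, folds recentred on the median gene, the identical E14 table, a mean of the Zscan4 copies or a sum without the highest, and SEs from the p-values.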

Additional observations from a re-analysis of the deposited data

Results flagged for a closer look

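Of 56 genes named by the rule for the text, 44 had a statistic in both tables, and 16 of these differed between NLS and DOX/E14 in their log2 fold against noDox, by the two-sided normal test adjusted over 11907 genes. Of all 11907 genes, 9.78% had a higher and 3.18% a lower fold in NLS. The named genes were mostly picked as called genes with the largest folds, which raises their count. The tables share the noDox libraries, and no library values exist to show the spread. All values here are log2 folds of NLS minus DOX/E14.

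Among the members the difference was 6.22 for Zscan4a, 7.0 for Zscan4d and 5.95 for Gm8300. Among the other 2-cell-like genes it was 7.52 for Gm12794, with an adjusted p of 0.00552, 6.50 for Gm8994 and 4.02 for Calcoco2. Gm12794 was at 2.06 RPKM in noDox and 0.0685 in DOX/E14. Cuffdiff gave that pair a p of 0.237 and q = 0.319 in the authors' deposited table, so it was not called there. SEs from the deposited p-values were applied only to the members, so the other differences in this section were not tested with them. Calcoco2 was lower than noDox in both groups, so its difference is between a larger and a smaller fall.

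Among the activators, Tbx3 differed by 4.32. Among the repressors, Lin28a differed by -3.06, Myc by -3.05 and Zfp42 by 1.22, the last with an adjusted p of 0.0228. Among the telomere genes, Terc differed by 2.10, Smc1b by 3.32, Nhp2 by -1.77 and Nop10 by -1.68. Khdc3 of the oocyte genes differed by 2.69, and Zscan5b, which was lower than noDox in both groups, by 3.53 with an adjusted p of 0.0286.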

How the results depend on the processing

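Of 53 values and counts recomputed under alternatives that could move them, 40 kept their direction and stayed within the limits for a change. Another 10 could not move by construction, 8 from the identical E14 table and 2 from the mean of the same Zscan4 copies. At q below 0.01, the members called in DOX/E14 came to 0, the other 2-cell-like genes called in NLS to 6, the repressors in NLS to 1, the telomere genes in NLS to 1, and the other Zscan genes to 0 in DOX/E14 and 0 in NLS. Where calls also needed a log2 fold of 1 or more in size, the activators called in DOX/E14 came to 3, the repressors to 5 in DOX/E14 and 1 in NLS, the telomere genes to 5 in DOX/E14 and 1 in NLS, and the other Zscan genes in DOX/E14 to 1. With a pseudocount of 1 RPKM the log2 fold of the summed Zscan4 copies in DOX/E14 was -2.29, since a pseudocount shrinks folds of low values. Of 51 folds of single members, 12 moved, 2 with a pseudocount of 0.1 RPKM and 10 with 1 RPKM, and 0 changed sign. No paired analysis was possible because the tables hold no values per library, and for the same reason no library could be left out. A sum with further Zscan4 rows was not run, since the tables hold no such row. Depth is unknown, so levels near 0 in DOX/E14 have no stated precision.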

Other observations

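The genes whose pair of log2 folds, DOX/E14 and NLS against noDox, lay nearest to that of the summed Zscan4 copies were ranked among 12996 genes by Euclidean distance, as a description over 3 groups that share the noDox libraries. The nearest 5 were Usp17le at a distance of 0.354, Pramef6 at 0.412, Usp17la at 0.607, H19 at 0.669 and Gm11544 at 0.740. The first 3 are on the list of 2-cell-like genes. Pramef6 was at 0.504 RPKM in noDox and 0.0482 in DOX/E14. In the NLS table it was at 0.516 RPKM in noDox and 3.41 in NLS, with q = 0.143 in the authors' deposited table, which was not called. Among the 5, only H19 was tested in DOX/E14. The other distances therefore rest partly on untested ratios of low values. H19, an imprinted long non-coding RNA of chromosome 7, was the most abundant of the 5. H19 was at 6.82 RPKM in noDox and 0.322 in DOX/E14, with q = 0.000469 in the authors' deposited table, and at 7.01 in noDox and 41.1 in NLS, with q = 0.00191 in the authors' deposited table. Gm11544 was at 0.513 RPKM in noDox and 0.0371 in DOX/E14, and at 0.526 in noDox and 1.80 in NLS, and was called in neither.

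Genes beside the members were looked up within 250 kb. The 4 neighbours of the Zscan4 copies, Nlrp4b, Vmn1r69, Vmn1r70 and Vmn1r71, were listed at 0 in every group. Of 9 neighbours of Tcstv1, Zfp131 was called higher in DOX/E14, from 8.51 to 18.5 RPKM, and of the 4 tested in NLS 0 were called by Cuffdiff at q below 0.05, while Hmgcs1 alone had an unadjusted p below 0.05. Beside Tcstv3, BC147527 was at 0.839 RPKM in noDox and 0.0294 in DOX/E14, and at 0.863 in noDox and 1.95 in NLS, and was called in neither. The 1 neighbour of Zfp352, Gm12633, was at 0.0367 RPKM in noDox and listed at 0 in DOX/E14 and in NLS.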
